A study of Homo sapiens with 4 samples.

Results

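The genes described here are the human DNA topoisomerase genes TOP1, TOP1MT, TOP2B, TOP3A and TOP3B, together with TDP1 and TDP2, whose enzymes remove stalled topoisomerases from DNA. They are 7 of the 61806 genes of the table and were matched by gene symbol. The set was assembled because TOP1 had risen with melatonin in both cell lines, so the values of TOP1 after melatonin describe that choice and are no independent evidence for it. JJ012 is a human chondrosarcoma line and 143B a human osteosarcoma line. Both were kept in suspension, without attachment, and each was sequenced untreated (control) and after 1 mM melatonin for 72 h. There was 1 library for each of the 4 conditions, all control cells were untreated cells, and no member was compared against a spread between cultures, so no p-value is given.

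DNA topoisomerases relieve the twisting that builds up when the strands of DNA are opened for transcription or replication. TOP1 cuts 1 strand ahead of and behind moving RNA polymerases and is the target of camptothecin drugs, and TOP1MT is its mitochondrial counterpart. TOP2B passes one duplex through another and is the form kept by non-dividing cells, whereas its paralog TOP2A belongs to dividing cells. TOP3A, with the helicase BLM, separates crossed DNA molecules in the nucleus and is also used in mitochondria, and TOP3B acts on RNA as well as DNA. TDP1 cleaves the bond that holds TOP1 to a DNA end, and TDP2 does the same for TOP2.

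The libraries held between 15889564 and 19218343 counts, and between 13198 and 14477 genes reached 1 FPKM, a unit that divides the count by exonic length and library size. Of 6 chondrocyte markers, SOX9 was the single marker that reached 1 FPKM in JJ012 (15.06 in the control and 6.16 with melatonin), and COL2A1 was at 0 counts there. The summed level of these markers was 16.08 and 6.52 FPKM in the JJ012 libraries and 16.74 and 13.27 FPKM in the 143B libraries. Of 8 osteoblast markers, RUNX2 was at 4.28 and 2.75 FPKM in 143B, while SP7 and IBSP had at most 1 count there. The osteoblast markers summed to 6.97 and 5.08 FPKM in 143B and to 107.22 and 68.34 FPKM in JJ012. PTPRC, a leukocyte marker, had at most 42 counts, EPCAM, of epithelium, at most 54, and PECAM1, of endothelium, was between 0.66 and 2.40 FPKM. SPP1 made up most of the JJ012 sum, at 79.39 and 64.50 FPKM. In JJ012 the summed osteoblast level went down with SPP1, COL1A1 (10.92 to 0.77 FPKM) and COL1A2 (12.48 to 0.14 FPKM), and the part of these markers in the members' values was not tested. In bulk RNA of this kind, a different share of cells in some state and a different amount of RNA per cell cannot be told apart.

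By the coordinates of the table (build hg38), TOP1 (ENSG00000198900) lies on the plus strand of chromosome 20 from 41028822 to 41124487. RefSeq places the start of the gene on the same base. The bases before the start are shown for TOP1, which was higher after melatonin in both lines, and for TDP2 (ENSG00000111802, chromosome 6, 24649979 to 24666930, minus strand). By counts scaled to the library total, TDP2 stayed within counting error in both lines. Both sequences are from RefSeq (GRCh38.p14), at chr20:41028572-41028821 on the plus strand (250 bases) and chr6:24666931-24667149 on the minus strand (219 bases). RefSeq starts TDP2 further inside the gene than the table does, and the last 31 bases of its 250-base window, which the table counts to the gene, are not shown. Capitals mark the GC box (GGGCGG), which SP1 can bind, and the antioxidant response element (TGACNNNGC), which NRF2 can bind, on either strand. A match is one of letters and does not show that a protein was bound.
TOP1: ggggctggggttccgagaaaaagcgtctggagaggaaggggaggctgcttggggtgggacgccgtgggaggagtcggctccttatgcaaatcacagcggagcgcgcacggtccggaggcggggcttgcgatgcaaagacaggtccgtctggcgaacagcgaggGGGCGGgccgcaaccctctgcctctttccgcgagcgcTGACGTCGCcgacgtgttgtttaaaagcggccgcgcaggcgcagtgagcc
TDP2: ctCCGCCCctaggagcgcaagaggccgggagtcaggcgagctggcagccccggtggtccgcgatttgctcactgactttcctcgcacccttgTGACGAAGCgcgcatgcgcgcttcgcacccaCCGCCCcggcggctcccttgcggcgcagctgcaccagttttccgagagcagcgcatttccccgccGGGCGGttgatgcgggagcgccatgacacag
TOP1 held 1 GC box, 87 bases before the start, and 1 antioxidant response element, 50 bases before it, and TDP2 held 3 GC boxes and 1 antioxidant response element. Of all 35116 RefSeq windows of 250 bases, 42.6% held a GC box and 10.9% an antioxidant response element. These letters thus stood before TOP1, which passed the fold limit, and before TDP2, which did not. The other members searched (TOP2B, TOP3A, TOP3B and TDP1) held 0 antioxidant response elements and did not pass the limit with melatonin. Whether these letters bear on the levels was not tested. Both whole windows were rich in G and C, with 66.8% and 28 CpG in TOP1 and 70.0% and 31 CpG in TDP2, where the median window had 58% and 11 CpG. Among the other members, TOP2B had 1 GC box and TOP3A had 2, and TDP1 had the ETS core CCGGAAG, found in 8.52% of windows. The CCAAT box, the TATA box (TATAAA), the E-box (CACGTG), the cAMP response element (TGACGTCA) and the AP-1 site (TGANTCA) were searched on both strands too, and their letters were in none of the 6 members' windows. Of the 7 members, TOP1MT was not matched.

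TOP1, the nuclear enzyme for relaxing DNA in transcription, was higher with melatonin in both lines. It had 1516 counts (7.79 FPKM) in the JJ012 control, 2587 counts (15.82 FPKM) in melatonin-treated JJ012, 2812 counts (17.48 FPKM) in the 143B control and 5569 counts (32.04 FPKM) in melatonin-treated 143B. The treated library was the higher one in each line, and the treated JJ012 library lay below the untreated 143B library. Fold changes are given on the log2(FPKM + 1) scale, melatonin less control. A gene counted as higher or lower when its fold change reached 0.58 in size, the fold limit of the study, provided that 1 of the compared libraries or both reached 1 FPKM. On this scale TOP1 was at 0.94 in JJ012 and 0.84 in 143B. These values placed it at rank 1444 from the top of 15794 genes in JJ012 and at rank 351 of 14135 genes in 143B.
Counts scaled to the library total (CPM) gave ratios whose exact 95% intervals, by the Clopper-Pearson method, cover counting error alone, since PCR copies are not independent molecules and no culture was repeated. TOP1 was 2.03-fold higher by CPM in JJ012 (interval 1.91 to 2.17) and 1.83-fold higher in 143B (1.75 to 1.92). The order of the lines depended on the processing, since the log2 CPM ratio was larger in JJ012 by 0.15 (counting interval of the difference 0.036 to 0.26), while with the trend over exonic length removed the fold change was 0.64 in JJ012 and 0.84 in 143B.
Of the 11822 genes measured in both lines, 137 (1.16%) were higher in both. Of the 9811 protein-coding genes among them, 50 (0.510%) were. TOP1 was one of these by the way the set was chosen. The other member nearest to passing in both lines was TOP1MT, which passed the limit in JJ012 at 1.03 and stayed under it in 143B at 0.19. PLCG1-AS1, on the opposite strand, overlaps TOP1 over 26469 bases, and it had between 41 and 98 counts per library. The pseudogene TOP1P1 had at most 7 counts.

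TOP1MT, on chromosome 8, was the other member that passed the limit. Its counts were 646 (5.23 FPKM) in the JJ012 control and 1212 (11.68 FPKM) with melatonin, and 713 (6.98 FPKM) in the 143B control and 897 (8.13 FPKM) with melatonin. The treated JJ012 library was the highest of the 4 and the untreated JJ012 library the lowest. By CPM, TOP1MT was 2.23-fold higher in JJ012 (2.03 to 2.46) and 1.16-fold higher in 143B (1.05 to 1.29). The log2 ratios of the lines differed by 0.94 (0.74 to 1.14), so the response of TOP1MT differed between these libraries by more than counting error, whereas the cultures behind them were not repeated. The share of counts from the mitochondrial genome, which TOP1MT serves, was 6.78% in untreated and 4.35% in treated JJ012, and 1.63% and 2.46% in 143B. Its part in the change of TOP1MT was not tested.

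In total, 2 of the 6 members measured in JJ012 were higher and 0 were lower, where 19.6% of all genes were higher and 18.6% were lower (38.2% in either direction). In 143B, 1 of 6 was higher and 0 were lower, where 6.09% of all genes were higher and 6.65% were lower (12.7% in either direction). The median log2 fold change of the members was 0.16 in JJ012 and 0.04 in 143B, beside 0.01 and 0.03 for all genes measured. With such a short list, and one chosen by TOP1, these counts describe the members only. By counting error, the interval of the CPM ratio lay above 1 for 3 members in JJ012 (36.9% of all genes) and below 1 for 1 member (35.2%), and in 143B it lay above 1 for 2 members (28.4%) and below 1 for 0 members (23.5%). TOP3B did not reach 1 FPKM in any library and is the member left out of these counts.

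**Figure D1:**
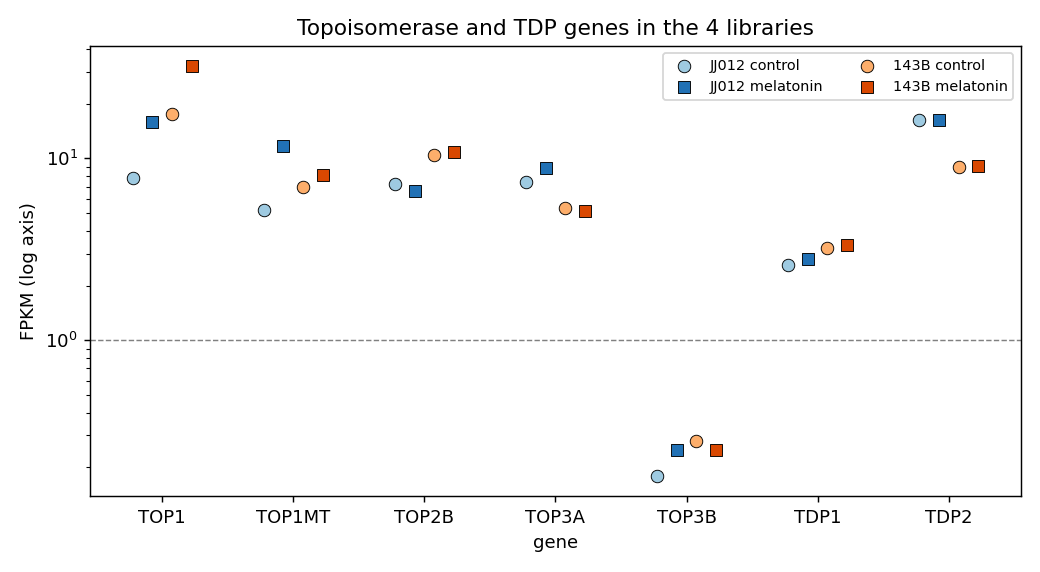
FPKM of the 7 genes (log axis) in the 4 libraries, with circles for control and squares for melatonin; each point is 1 library, and the dashed line marks 1 FPKM. TOP1 was at 7.79 and 15.82 FPKM in JJ012 and at 17.48 and 32.04 FPKM in 143B, and TOP3B lay below 1 FPKM throughout.

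TOP2B (ENSG00000077097, chromosome 3, 25597978 to 25664909) stayed close to its control level. It had 2583 counts (7.21 FPKM) in the JJ012 control, 1999 counts (6.64 FPKM) with melatonin, 3077 counts (10.39 FPKM) in the 143B control and 3463 counts (10.82 FPKM) with melatonin. Both 143B libraries were above both JJ012 libraries. By CPM the ratio to the control was 0.921 in JJ012 (0.869 to 0.977) and 1.04 in 143B (0.992 to 1.09). The value in JJ012 depended on the scaling, since the log2 fold change was -0.10 from FPKM, 0.15 from TPM (FPKM rescaled to a common sum) and -0.48 once the trend over exonic length was removed.
TOP2A, the paralog that is not a member, had 10.29 and 9.67 FPKM in JJ012 (1260 and 995 counts) and 12.18 and 4.76 FPKM in 143B (1234 and 521 counts). It was lower with melatonin in 143B, with a log2 fold change of -1.19. The level of TOP2B was 0.853 times that of TOP2A in the 143B control and 2.27 times with melatonin, and 0.701 and 0.687 times in the JJ012 libraries. These ratios rest on exonic length. With all counts of a gene divided by the length of its principal transcript, they were 2.19 and 2.15 in JJ012 and 2.66 and 7.10 in 143B. Reads from exons outside that transcript stay in this measure. The exonic length is 3.46 times the principal transcript for TOP2B and 1.11 times for TOP2A. Which gene was the more abundant in JJ012 and in the 143B control thus depended on the length used.
Other proliferation genes moved in 143B too. Of 17 listed, all measured in both lines, 7 were lower and 2 were higher in 143B, with a median of -0.37, and 4 were lower and 0 higher in JJ012, with a median of -0.22. Among all genes measured, 6.65% were lower and 6.09% higher in 143B, and 18.6% and 19.6% in JJ012. RRM2, a subunit of ribonucleotide reductase, was lower in both lines (1.09 to 0.39 FPKM in JJ012 and 4.70 to 1.41 in 143B). CCNA2, cyclin A2, went from 6.80 to 2.93 FPKM in 143B. CCNB1, the mitotic cyclin B1, was also lower in both lines (18.35 to 8.43 FPKM in JJ012 and 9.80 to 5.08 in 143B), and BIRC5, which acts in chromosome segregation, was lower in JJ012 (3.90 to 0.91). The 2 higher genes of 143B, named after their values were seen, were PCNA, the sliding clamp of replication (7.09 to 11.50), and MCM6, of the replicative helicase (6.13 to 9.75). Once the length trend was removed, 0 genes of the list were higher there, beside 5.74% of all genes. With TPM, 2 genes of the list were higher in JJ012, where 33.0% of all genes were. The summed level of the list was 117.72 FPKM in the 143B control and 89.77 with melatonin, and 105.18 and 78.54 FPKM in JJ012. The part of cell cycling in the values of the topoisomerase genes was not tested.

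TOP3A (ENSG00000177302, chromosome 17, 18271428 to 18315007) had 1168 and 1182 counts in JJ012 (7.39 and 8.90 FPKM) and 697 and 724 counts in 143B (5.33 and 5.13 FPKM). Both JJ012 libraries were above both 143B libraries, which is the reverse of TOP2B. By CPM the ratio to the control was 1.20 in JJ012 (1.11 to 1.31) and 0.962 in 143B (0.865 to 1.07). Its log2 fold change of 0.24 in JJ012 was under the limit. This value depended on the scaling too, at 0.53 from TPM and 0.01 after the trend over exonic length was removed.
TOP3B (ENSG00000100038, chromosome 22, 21957025 to 21982813) had 23 and 27 counts in JJ012 and 30 and 29 counts in 143B, which is between 0.18 and 0.28 FPKM. The interval of its CPM ratio ran from 0.772 to 2.55 in JJ012 and from 0.518 to 1.54 in 143B, so a difference was not detectable at this depth. PPM1F-AS1, on the other strand, overlaps TOP3B over 20608 bases and had between 44 and 119 counts, more than TOP3B itself. Which strand the counting used is not given in the sources used here, so without strand the reads of this pair cannot be told apart.

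TDP1 (ENSG00000042088, chromosome 14, 89954939 to 90044764, plus strand) had 308 and 282 counts in JJ012 (2.58 and 2.81 FPKM) and 318 and 355 counts in 143B (3.22 and 3.32 FPKM). Its CPM ratio was 1.09 in JJ012 (0.924 to 1.29) and 1.03 in 143B (0.886 to 1.21), so no difference beyond counting error was seen. TDP2 had 929 and 778 counts in JJ012 (16.24 and 16.19 FPKM) and 424 and 463 counts in 143B (8.96 and 9.06 FPKM). Its CPM ratio was 0.997 in JJ012 (0.905 to 1.10) and 1.01 in 143B (0.884 to 1.16). All 4 intervals include 1. These ratios rest on the library totals. With TPM, the log2 fold changes in JJ012 were 0.36 for TDP1 and 0.27 for TDP2, under the limit, where the median gene was at 0.21. The level of TOP1 was 3.02 times that of TDP1 in the JJ012 control and 5.63 times with melatonin, and 5.43 and 9.65 times in 143B. Per base of the principal transcripts, with all counts of each gene kept, the ratios were 4.87 and 9.09 in JJ012 and 8.76 and 15.5 in 143B.

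**Figure D2:**
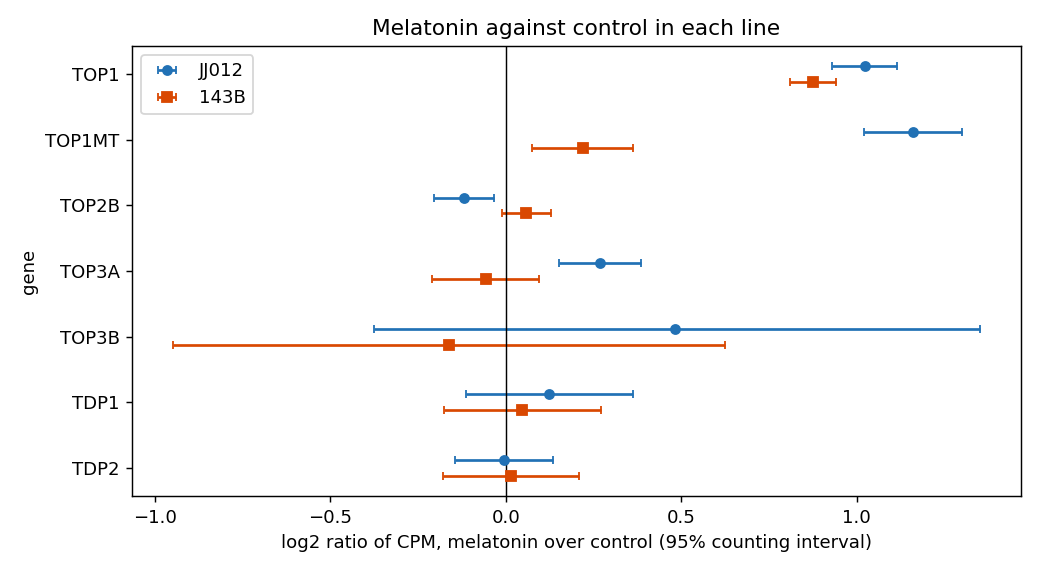
Log2 ratio of CPM, melatonin over control, of the 7 genes in JJ012 (circles) and 143B (squares); bars are 95% counting intervals and each ratio compares 1 library with 1 library. TOP1 lay well to the right of 0 in both lines, TOP1MT mainly in JJ012, and the bars of TDP1 and TDP2 crossed 0.

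The 6 topoisomerase genes that are expressed outside meiosis (TOP1, TOP1MT, TOP2A, TOP2B, TOP3A and TOP3B) were also set beside each other by FPKM. TOP1 made up 20.5% of their sum in the JJ012 control and 29.9% with melatonin, and 33.2% and 52.4% in 143B. TOP1MT made up 13.7% and 22.1% in JJ012, and 13.3% in each 143B library. TOP2A went from 27.0% to 18.3% in JJ012, where its own level was within counting error (CPM ratio 0.940, interval 0.864 to 1.02) and the sum was larger, and from 23.1% to 7.79% in 143B. TOP2B made up 18.9% and 12.5% in JJ012 and 19.7% and 17.7% in 143B, and TOP3A 19.4% and 16.8% in JJ012 and 10.1% and 8.39% in 143B.
The exonic length that the authors used counts every exon of a gene and is 10127 bases for TOP1 and 18645 bases for TOP2B, where the principal transcripts of GENCODE 29 have 3738 bases (21 exons) and 5389 bases (36 exons). Levels of different genes depend on this choice. TOP1 was 1.08 times as abundant as TOP2B in the JJ012 control per exonic base and 0.846 times per base of the principal transcript, an alternative added after seeing the data. This alternative divides all counts of a gene by the length of 1 transcript, so reads from its other exons stay in. In the other libraries TOP1 was the more abundant by both measures, at 2.38 and 1.87 times in treated JJ012, 1.68 and 1.32 times in the 143B control and 2.96 and 2.32 times in treated 143B. Per base of the principal transcript, TOP2B took 27.8% and 17.2% of the 6 genes in the JJ012 libraries, TOP1 23.5% and 32.2%, and TOP2A 12.7% and 8.03%. By this measure TOP2B had the largest share in the JJ012 control, and by exonic length TOP2A had it. On the same basis, TOP1 took 36.2% of the 6 genes in the 143B control and 52.0% with melatonin, and TOP2A 10.3% and 3.16%.

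**Figure D3:**
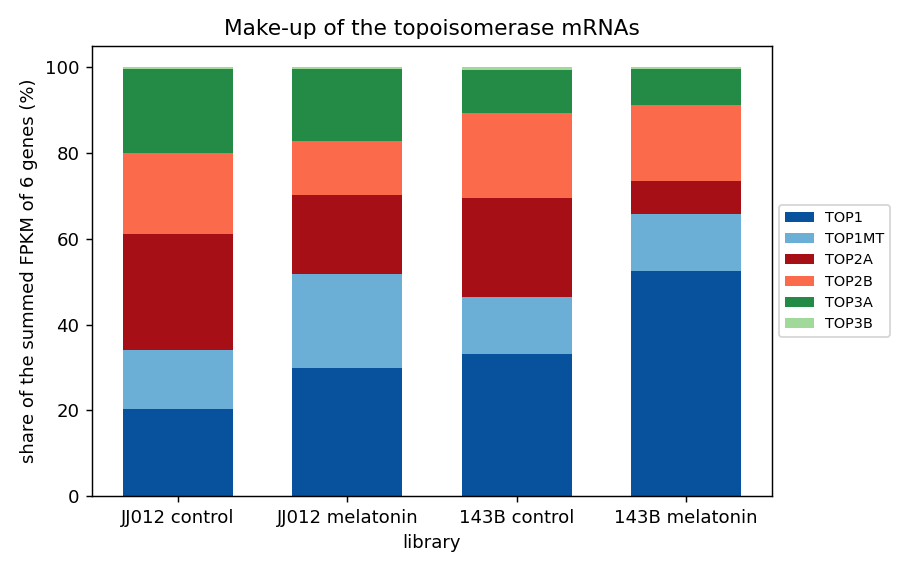
Share of each of 6 topoisomerase genes in their summed FPKM (percent, bars from 0 to 100), 1 bar per library. TOP1 grew from 33.2% to 52.4% of the sum in 143B and from 20.5% to 29.9% in JJ012.

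The untreated lines differed in these genes as well. The comparison is of 1 library with 1 library, so line and library cannot be told apart. TOP1 was higher in 143B (log2 fold change 1.07, 2.24-fold by CPM with an interval of 2.11 to 2.39) and TDP2 was lower (-0.79, 1.81-fold by CPM with an interval of 1.61 to 2.04), while 4 members stayed within the limit. Among all 16929 genes measured, 27.4% were higher in 143B and 41.3% were lower, and the median gene was at -0.29. Relative to that gene, TOP1 was at 1.36, TOP2B at 0.76, TOP1MT at 0.64, TDP1 at 0.52, TOP3A at -0.12 and TDP2 at -0.51, so that 3 members were higher and 0 lower, where 34.5% of all genes were higher and 32.6% lower on that scale. The counting interval of the CPM ratio lay above 1 for 4 members (35.1% of all genes) and below 1 for 2 (50.8%), so it left out 1 for 6 of 6, as it did for 86.0% of all genes.
By CPM, the order of TOP1 from low to high was JJ012 control, treated JJ012, 143B control and treated 143B, and each step exceeded counting error. The step from treated JJ012 to untreated 143B was the smallest, at 1.10-fold (1.05 to 1.17). After treatment, TOP1 was 2.02-fold higher in 143B than in JJ012 (1.93 to 2.12). TOP1MT ran from the JJ012 control through both 143B libraries to treated JJ012, each step again beyond counting error. For TOP2B the 143B libraries did not differ from each other, for TOP3A the same pair did not, and for TDP2 neither pair within a line did. No neighbours in the order of TDP1 or TOP3B differed beyond counting error.

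In JJ012, fold changes across genes went with exonic length, which bears on members as long as TOP1 and TOP2B. When the protein-coding genes were cut into deciles of length, the median of the shortest decile (207 to 2065 bases) was -0.49 and that of the longest (11595 to 70573 bases) 0.36. In 143B the medians of the shortest and longest deciles were 0.11 and -0.02. Genes around the length of TOP1 had a running median of 0.29 in JJ012, and TOP1 less this value was at 0.64. TOP1MT was at 0.85 on that scale. Both remained above the limit of 0.58, as did TOP1 in 143B at 0.84, where the running median was at 0. TDP2, the shortest member (2977 bases), moved from 0.00 to 0.17 in JJ012, and TOP2B, the longest, to -0.48. Whether length or something that goes with it moves these values was not tested.

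**Figure D4:**
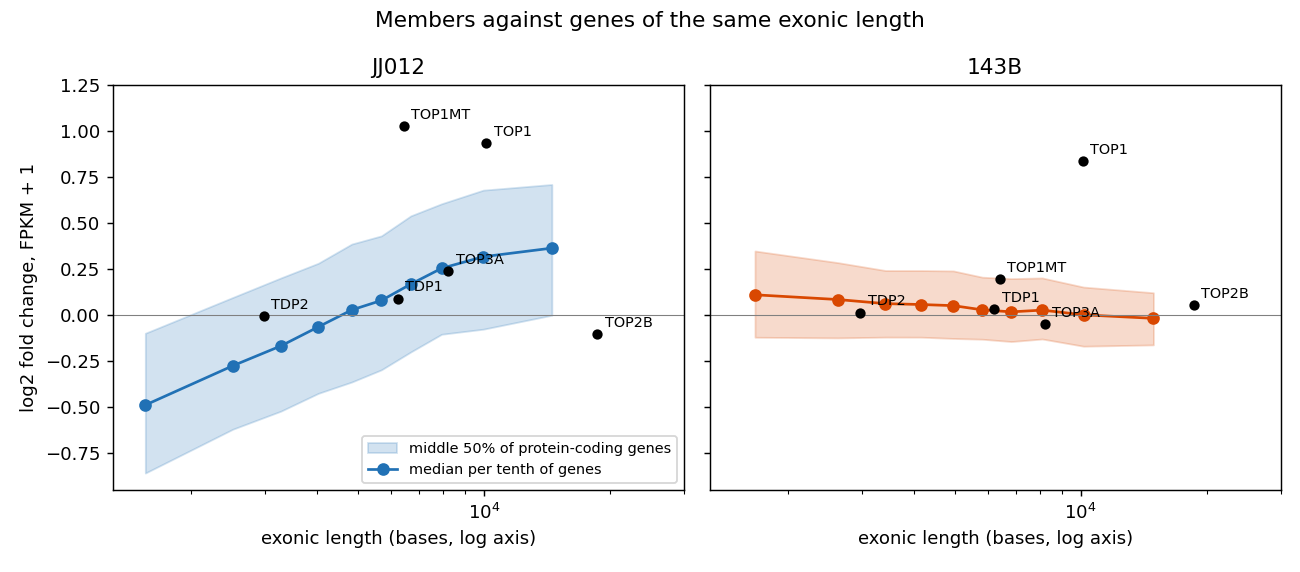
Log2 fold change (FPKM + 1) of the 6 measured members (black points) against exonic length in bases (log axis) in JJ012 and 143B; the line joins the medians of deciles of the protein-coding genes by length and the band holds their middle 50%. TOP1 and TOP1MT lay above the band in JJ012, where the line climbed from -0.49 to 0.36, TOP2B lay past its right end at -0.10, and TOP1 lay above the nearly level band of 143B.

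Genes that work with the topoisomerases were taken from 10 written lists. Among all genes measured, 19.6% were higher and 18.6% lower in JJ012, and 6.09% and 6.65% in 143B. In JJ012 the share of all genes that were higher was 33.0% with TPM, 22.5% with TMM factors and 19.5% by CPM. These shares are of 23153, 17325 and 17741 genes, because the filter of 1 was then in that unit. With the length trend removed the share was 18.1%, and with a limit of 1 it was 7.86%. The counts of the lists were not tested against these shares. For single-strand break and TOP1 adduct repair, 1 of 12 measured genes was higher and 2 were lower in JJ012 (median -0.05), and 1 of 10 was higher and 0 lower in 143B (median 0.18). LIG3, the ligase of this pathway, went from 1.46 to 2.85 FPKM in JJ012, FEN1, a flap endonuclease, from 18.47 to 7.78 and ERCC1, part of a nuclease that trims blocked ends, from 13.37 to 6.64. POLB, the gap-filling polymerase, was the gene that was higher in 143B (2.61 to 4.88 FPKM). In JJ012, 2 were higher with TPM, TMM factors or CPM and 0 with the length trend removed. PARP1, the break sensor, was at 5.76 and 6.63 FPKM in JJ012 and 3.39 and 4.43 in 143B.
For TOP2 adduct and double-strand end repair, 3 of 10 genes were higher in JJ012 and 0 lower (median 0.39), and 0 of 10 passed in either direction in 143B (median 0.10). These were PRKDC, the catalytic subunit of DNA-dependent protein kinase (7.44 to 19.03 FPKM), ZNF451, a SUMO ligase that aids TDP2 (4.39 to 10.50), and RAD50 (0.39 to 1.26). RAD50 had 80 and 215 counts and passed the filter of 1 FPKM through the treated library only. The number higher in JJ012 was 7 with TPM, 6 with TMM factors (a scaling by the bulk of genes) and 5, with 1 lower, by CPM, and 1 was higher in 143B by CPM or with TMM factors. It was 2 in JJ012 with a filter of 5 FPKM, with a limit of 1 or with the length trend removed.
Among partners of TOP3A and TOP3B, 1 of 5 was higher in JJ012 and 0 of 6 passed in 143B, with medians of 0.38 and -0.12. The gene that passed was RMI1, which forms a complex with TOP3A and BLM (2.80 to 4.71 FPKM). With TPM, 3 were higher in JJ012, and when centred on the median gene, 0 were. BLM was below 1 FPKM in each library, and TDRD3, the partner of TOP3B, was at 0.84 and 0.83 FPKM in JJ012 and 1.46 and 1.04 in 143B.

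The list CTCF and cohesin, whose proteins occupy many of the same sites as TOP2B, had 4 of 8 genes higher and 0 lower in JJ012, with a median of 0.57. Of all genes, 19.6% were higher and 18.6% lower there. The number higher in the list was 1 with the length trend removed (18.1% of all genes), 0 with a limit of 1 (7.86%) and 7 with TPM (33.0%). The 4 were STAG2 (9.19 to 16.84 FPKM), WAPL (10.46 to 18.95), NIPBL (4.95 to 9.15) and SMC3 (2.84 to 5.49), which build, load or release cohesin. In 143B, 0 of 8 passed, with a median of -0.12. TOP2B itself was at 7.21 and 6.64 FPKM in JJ012.
In R-loop removal, 0 of 6 genes were higher and 2 were lower in JJ012, and 1 of 6 was higher and 0 lower in 143B, with medians of -0.12 and 0.25. RNASEH2C, a subunit of the enzyme that cuts RNA paired with DNA, was lower in JJ012 (8.97 to 4.92 FPKM) and higher in 143B (2.06 to 3.91 FPKM), and RNASEH2A, of the same enzyme, was lower in JJ012 with 69 and 27 counts. With the length trend removed, 1 gene of the list was lower in JJ012.
For mitochondrial DNA maintenance, where TOP1MT and TOP3A act, 3 of 11 genes were higher in JJ012 and 0 of 11 passed in 143B, with medians of 0.27 and 0.15. TWNK, the mitochondrial helicase, went from 9.83 to 17.90 FPKM, POLG2, a subunit of the mitochondrial DNA polymerase, from 8.57 to 13.81, and POLRMT, the mitochondrial RNA polymerase, from 11.65 to 17.98. With TPM, 5 were higher in JJ012, and with a limit of 1, 0 were. TFAM, which packs mitochondrial DNA, was at 8.58 and 11.28 FPKM in JJ012. Of the SUMO and ubiquitin modifiers, 0 of 7 passed in either line, with medians of 0.20 and -0.02 (3 were higher in JJ012 with TPM), and TOPORS, a ligase named for binding TOP1, was at 6.69 and 8.55 FPKM in JJ012 and 9.19 and 9.03 in 143B.

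**Figure D5:**
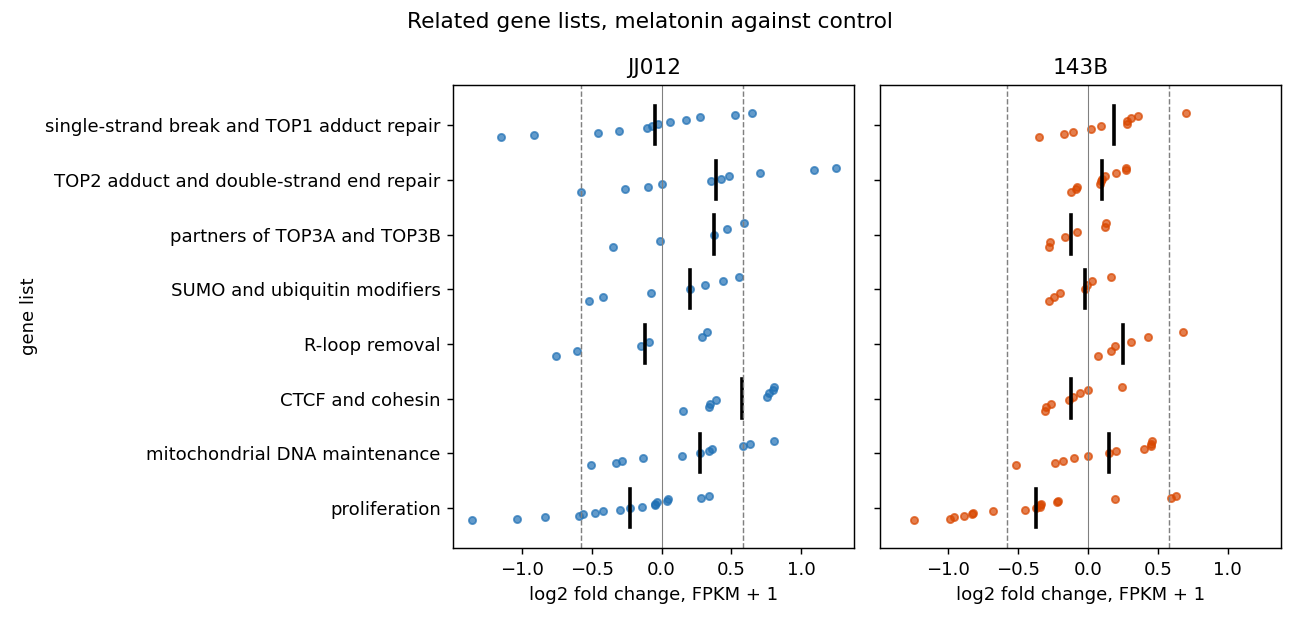
Log2 fold change (FPKM + 1) of the measured genes of 8 lists in JJ012 and 143B; each point is 1 gene, the black bar is the median of the list and the dashed lines mark 0.58 and -0.58. The CTCF and cohesin genes sat at a median of 0.57 in JJ012 and -0.12 in 143B, and the proliferation genes lay lowest in both lines.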

How the data were processed

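RNA from 4 libraries, 1 per condition, was sequenced as 150-base paired ends after poly(A) selection. The counts were deposited as whole numbers per gene, and the FPKM deposited by the authors equalled count over exonic length and library total within the rounding of their 2 decimals. The submitters' processing notes name cutadapt 1.9.1, HISAT2 2.2.1, HTSeq 0.6.1 and DESeq2, and build hg38. Their strand setting is not given in the sources used here. Columns were matched to samples by cell line, with a T after the line taken to mean melatonin.

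Fold changes used log2(FPKM + 1) over genes with at least 1 FPKM in 1 of the libraries compared, and were counted at 0.58. CPM ratios had exact 95% intervals. With no replicate, edgeR's quasi-likelihood test could not be used, and edgeR 4.0.16 (R 4.3.3) gave TMM factors only. Running medians covered 501 genes. Gene types and principal transcripts came from GENCODE 29. The 9 alternatives planned included adding 0.1 FPKM in place of 1, no filter, a filter of 5 FPKM, TPM, CPM and CPM with TMM factors. They also included centring on the median gene, a limit of 1 and removal of the length trend. With TPM, CPM or TMM factors, the filter of 1 and the 1 added were in that unit. The closing section says where the alternatives changed the counts of members. The procedures were run on simulated counts that held counting error alone and no length trend. Spread between cultures was not simulated, so that run cannot show how the calls would hold across cultures. Genes named from lists were those past the limit, at most 4 per list, with partner genes, TOP2A, and 5 genes closest to TOP1. PCNA and MCM6 were named beyond this rule. The members and lists were chosen with earlier results of these data known. One gene of the R-loop list is not reported here, and the list was counted without it. Python 3.11.15, numpy 2.4.6, pandas 2.3.3, scipy 1.17.1 and matplotlib 3.10.9 were used.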

Additional observations from a re-analysis of the deposited data

Results flagged for a closer look

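The log2 CPM ratios of TOP2B and TOP3A had opposite signs in the cell lines, although neither gene passed the limit in either line. The log2 CPM ratio of TOP2B was -0.12 in JJ012 and 0.06 in 143B, a difference of -0.18 (counting interval -0.29 to -0.07). That of TOP3A was 0.27 in JJ012 and -0.06 in 143B, a difference of 0.33 (0.14 to 0.52). In 143B the interval of each gene included 0, so no direction was seen there. With 1 library per condition, these differences between lines were not tested. With TPM, TOP2B was at 0.15 in JJ012, so its direction there depended on the scaling. TOP3A in JJ012 was at 0.53 with TPM and at 0.01 with the length trend removed.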

How the results depend on the processing

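In JJ012, 2 members were higher under the alternatives run, except with a limit of 1, where 1 was (7.86% of all genes). In 143B, 1 member was higher, except with a limit of 1, where 0 were (1.71% of all genes). No alternative gave a member that was lower in either line. Between the untreated lines, 1 member was higher and 1 lower in 143B. The numbers were 4 and 0 with TPM (36.5% and 38.4% of all genes), 5 and 0 with TMM factors (34.9% and 36.9%) and 3 and 0 when centred on the median gene (34.5% and 32.6%). With a limit of 1, 0 were lower (28.7% of all genes), and once the length trend was removed 0 were lower (29.8%). With TPM the median gene of JJ012 moved to 0.21, and of the changed genes 62.4% were higher, against 51.4% with FPKM. The filter of 1 was then in TPM, so 23153 genes were measured in JJ012 in place of 15794. TOP1 in JJ012 ranged from 0.64 (length trend removed) to 1.27 (TPM). Per base of the principal transcript, the log2 of the TOP1 level over that of TOP2B in the JJ012 control was -0.24 in place of 0.11. Of the counts of the gene lists, 56 moved by over 1.5 times or changed from or to 0, and 268 did not. The 268 include counts that were 0 under both settings. No paired analysis was possible because each condition had 1 library, and for the same reason none could be left out.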

Other observations

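Over the 4 libraries, the profile of TOP1 (log2 of FPKM + 1, less its mean) was set beside those of 4546 protein-coding genes that reached 5 FPKM throughout. The 5 closest by Euclidean distance were TGIF1 (0.35), CDK17 (0.38), TMTC1 (0.39), IPO7 (0.40) and PTPRK (0.43). TMTC1 was at 5.96 and 10.30 FPKM in JJ012 and 10.03 and 17.27 FPKM in 143B. It was the single one of the 5 past the limit in both lines, with log2 fold changes of 0.70 and 0.73. Of the 9811 protein-coding genes measured in both lines, 0.510% were higher in both. The rest of the 5 lay between 0.28 and 0.47 in 143B, under the limit. IPO7, a nuclear import receptor, was at 30.18 and 63.57 FPKM in JJ012 and at 80.76 and 98.37 FPKM in 143B. The likeness rests on 4 values per gene, and TOP1 was itself chosen for its rise in both lines.

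Protein-coding genes with a genomic span of at least 200000 bases, in whose transcription TOP1 and TOP2B are known to act, lay at a median fold change (log2) of 0.27 in JJ012 (755 genes), beside 0.02 for all 11534 protein-coding genes measured. Of these long genes, 30.6% were higher and 8.08% lower, against 17.8% and 16.1% of all. With the trend over exonic length removed, the medians were 0.04 and -0.01, with 16.6% of the long genes higher and 13.0% lower, against 14.1% and 15.1% of all. At a span of at least 100000 bases (2096 genes), the medians with the trend removed were 0.09 and -0.01. Of those genes, 19.4% were then higher and 11.1% lower. In 143B the 752 long genes had a median of 0.00, beside 0.04 for all, with 1.99% higher and 2.13% lower, against 3.48% and 2.60% of all. The members themselves span between 16952 and 95666 bases.

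SPO11, the meiotic relative of the topoisomerases, had 0 counts in each library, and C11orf80, the gene of its partner subunit, was at 6.56 and 4.97 FPKM in JJ012 and at 18.09 and 17.26 FPKM in 143B. TOP3BP1, a pseudogene of TOP3B, had at most 3 counts per library. The topoisomerase pseudogenes found in the table were below 1 FPKM throughout.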
